A study of Mus musculus with 8 samples.

Results

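The effect of the 5xFAD genotype was followed across 8 cell classes of the mouse brain in single-nucleus RNA-seq data. All 61949 of 61949 deposited nuclei, from 8 of 8 libraries, were used, and the UMI counts (counts of distinct transcript molecules) of each library were summed over each of the 8 cell classes that the authors had assigned. The 4 libraries that carry 5xFAD were set against the 4 that do not, class by class.

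5xFAD mice carry mutant human transgenes, APP among them, under a neuronal Thy1 promoter, and deposit amyloid plaques in cortex and hippocampus. Microglia are the resident macrophages of the brain; they gather around plaques and take on a disease-associated (DAM) state, in which genes of lipid handling, phagocytosis and growth factor signalling rise as homeostatic genes fall. Astrocytes and oligodendrocytes also have disease-associated states, in which complement C4b is a recurrent gene. Cnp encodes a myelin enzyme, and mice without it develop axonal damage and secondary inflammation of white matter.

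C57BL6/J mice were taken at 6 months, and nuclei were isolated from a hemisphere after the cerebellum and olfactory bulb had been removed. The genotypes were WT, Cnp-/-, 5xFAD and Cnp-/-;5xFAD, with 2 libraries each, so that the 5xFAD effect could be measured both on a Cnp-intact and on a Cnp-deficient background. Libraries held 6801 to 8824 nuclei and 68905044 to 82399061 UMIs. A reporting summary describes single-cell replicates as pools of 2 animals, whereas the methods text gives pooling for another data set and not for this one. Whether a library here holds 1 animal or a pool is therefore unclear, and p-values measure the spread between these libraries, which may be technical.

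The nuclei were 45141 neurons, 5612 mature oligodendrocytes (MOL), 4810 astrocytes, 2472 microglia, 1667 endothelial cells, 1522 oligodendrocyte precursors (OPC), 465 newly formed oligodendrocytes (NFOL) and 260 pericytes. Averaged over the libraries, the summed defining markers of a class were the highest of all marker sets in 7 of these classes. Microglia held 3220 CPM of their own markers beside 2070 CPM of MOL markers, which were the higher of the pair in Cnp-/- replicate 1 (4170 against 2650 CPM). The NFOL class was the exception, with 4250 CPM (UMIs of a gene scaled to the total of the summed profile) of OPC markers and 3540 CPM of MOL markers against 2200 CPM of its own. Its astrocyte markers averaged 2190 CPM and exceeded its own markers in WT replicate 1 (3810 against 1130 CPM) and 5xFAD replicate 2 (3210 against 1740 CPM), and the part of other cells in the NFOL share was not tested. The endothelial class also held 3790 CPM of pericyte markers beside 7320 CPM of its own. Cnp in MOL lay at 219 to 321 CPM in the 4 libraries labelled Cnp-intact and at 23.1 to 32.8 CPM in the 4 labelled Cnp-/-, as labelled. Mouse App in neurons lay at 371 to 413 CPM with 5xFAD and 381 to 419 CPM without, and the human transgenes have no row in the mouse table, so the 5xFAD labels could not be checked in this way. In all, 454 barcodes occurred in more than 1 library and covered 909 nuclei (1.47%).

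Microglia made up a larger share of the nuclei in every library with 5xFAD than in any without. The microglial share was 2.64% and 1.16% in the WT libraries, 3.78% and 1.88% in Cnp-/-, 6.95% and 4.98% in 5xFAD and 6.05% and 4.82% in Cnp-/-;5xFAD. The mean was 5.7% ± 0.997 with 5xFAD and 2.37% ± 1.12 without (SD, n = 4 each), a ratio of 2.41. NFOL made up 0.451% and 0.323% in WT, 0.637% and 0.544% in Cnp-/-, 1.4% and 1.01% in 5xFAD and 0.93% and 0.769% in Cnp-/-;5xFAD (1.03% ± 0.267 against 0.489% ± 0.134). Pericytes made up 0.244% and 0.309% in WT, 0.275% and 0.215% in Cnp-/-, 0.82% and 0.581% in 5xFAD and 0.401% and 0.556% in Cnp-/-;5xFAD (0.59% ± 0.173 against 0.261% ± 0.0402). Summed smooth muscle markers in the pericyte class lay at 115 and 0 CPM in WT, 71.6 and 43.5 CPM in Cnp-/-, 867 and 228 CPM in 5xFAD and 327 and 57.7 CPM in Cnp-/-;5xFAD, all 3 markers were detected, and the part of such cells in the share was not tested. The shares of both rare classes were higher in all 4 libraries with 5xFAD, while neurons were lower in all 4. The neuronal share was 74.5% and 81.6% in WT, 73.6% and 77.5% in Cnp-/-, 60.0% and 71.2% in 5xFAD and 70.8% and 73.2% in Cnp-/-;5xFAD (68.8% ± 5.94 against 76.8% ± 3.58). Each of these 4 classes gave a two-sided exact permutation p of 0.0286, which is the smallest that 4 libraries against 4 allow, and a Benjamini-Hochberg adjusted p of 0.0571 over the 8 classes, so no share passed a threshold of 0.05. That test relabels the libraries freely. Relabelling within each Cnp background, or within each replicate number, allows no exact permutation p below 0.0556.

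The groups overlapped for the other 4 classes. Astrocytes made up 8.36% ± 1.7 with 5xFAD and 7.21% ± 1.92 without, MOL 9.79% ± 2.75 and 8.36% ± 2.25, OPC 2.87% ± 0.886 and 2.06% ± 0.574, and endothelial cells 2.87% ± 0.373 and 2.45% ± 0.577 (exact permutation p = 0.486, 0.486, 0.229 and 0.286). Within the Cnp backgrounds the microglial share was 4.07 percentage points higher in 5xFAD than in WT and 2.6 points higher in Cnp-/-;5xFAD than in Cnp-/-. The neuronal share was 12.5 points lower (a difference of -12.5) and 3.56 points lower (-3.56) in the same comparisons. Shares sum to a whole, and among nuclei other than neurons microglia (18.3% ± 1.64 against 9.84% ± 3.43) and NFOL (3.26% ± 0.303 against 2.09% ± 0.377) still did not overlap between the groups, whereas the pericyte shares did. On that denominator the direction turned for astrocytes (a difference of -4.88 points), MOL (-4.75) and endothelial cells (-1.09), with overlapping groups. A share of nuclei gives no number of cells per brain.

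**Figure D1:**
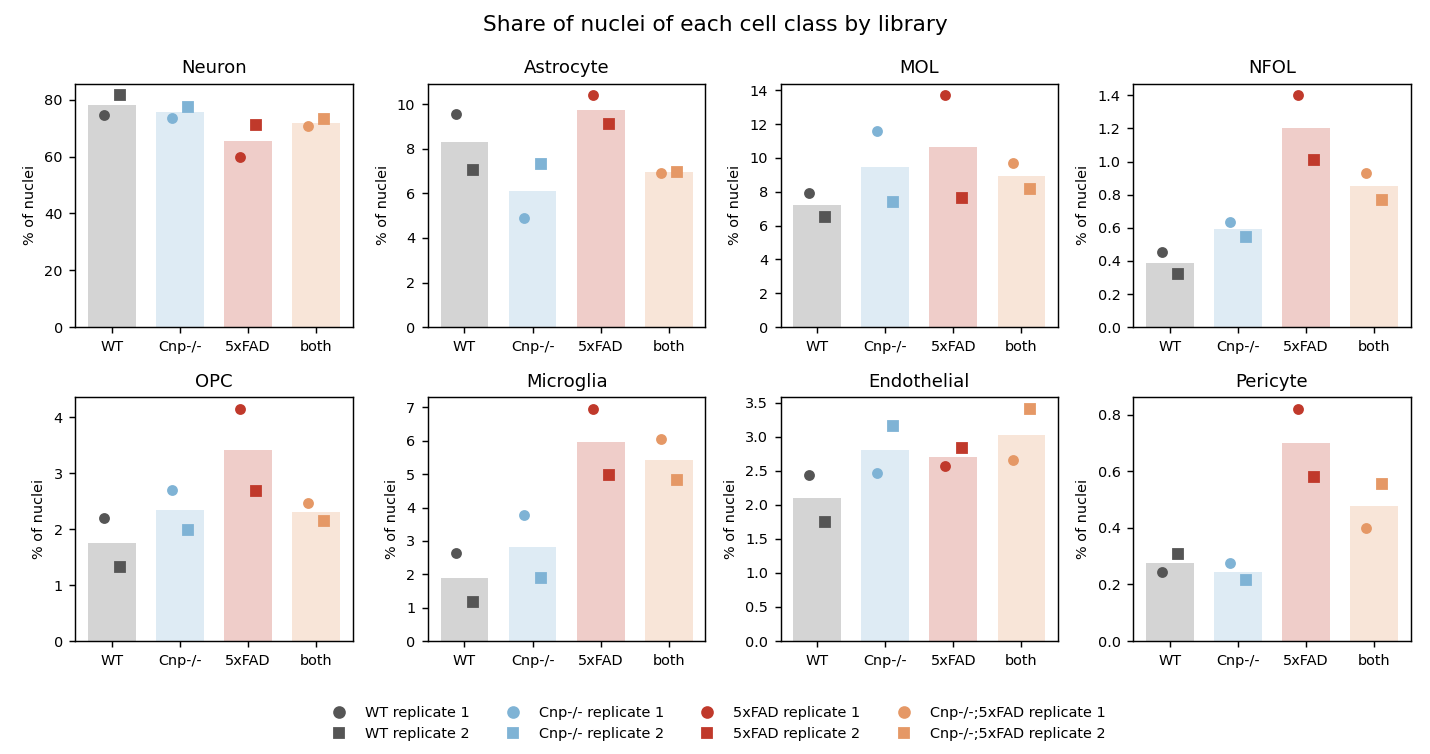
Share of nuclei (percent, vertical axes) of each cell class in each library, grouped by genotype, with bars at the mean of 2 libraries. The 4 libraries with 5xFAD sit above all 4 without for microglia, NFOL and pericytes and below them for neurons.

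By edgeR, and in the effect averaged over both Cnp backgrounds, genes passed the threshold in microglia and in no other class. 21 of 9621 genes tested rose in microglia (0.218%) and 1 fell (0.0104%), while 902 (9.38%) had an unadjusted p under 0.05 (quasi-likelihood test, Benjamini-Hochberg adjusted p under 0.05 for a call). The microglial count of 22 was 8 to 75 with 1 library left out, the lowest without 5xFAD replicate 2 and the highest without WT replicate 1, and 0 in a model without an interaction of the genotypes. No gene was called by edgeR in the other classes for this averaged effect (0% in either direction). That count of 0 was not kept in every setting, since endothelial cells gave 142 genes without WT replicate 1, NFOL 12 without WT replicate 2, 9 without Cnp-/- replicate 1 and 1 without Cnp-/- replicate 2, neurons 4 without Cnp-/- replicate 1, and pericytes 1 without Cnp-/-;5xFAD replicate 1 and 2 without Cnp-/-;5xFAD replicate 2. With no filter on low counts edgeR called 352 genes in astrocytes, 135 in endothelial cells, 110 in OPC, 47 in NFOL, 37 in MOL and 2 in pericytes. Unadjusted p under 0.05 was reached by 574 of 11809 genes tested in astrocytes, 614 of 11754 in endothelial cells, 326 of 8761 in MOL, 2542 of 21584 in neurons, 434 of 7248 in NFOL, 407 of 9264 in OPC and 78 of 1958 in pericytes. The smallest adjusted p in these classes was 0.0676, for Dync1i1 in NFOL.

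DESeq2 run on the same profiles called 45 genes in microglia (0.468%), 35 of them higher, which included all 22 of the edgeR calls. In neurons it called 501 genes (2.32%), of which 150 were higher and 351 lower. It called 2 genes in astrocytes (0.0169%, 1 higher), 2 in endothelial cells (0.017%, both lower), 6 in MOL (0.0685%, 4 higher, C4b among them), 3 in OPC (0.0324%, 2 higher), and none in NFOL and pericytes (0%). How many genes are called in neurons therefore depends on the tool, with 0 by edgeR and 501 by DESeq2.

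No gene was called in more than 1 class by edgeR, so there were 0 genes changed in common and 22 called in 1 class alone, out of 21746 genes tested in at least 1 class, 14262 in at least 2 and 1544 in all 8. DESeq2 called 4 genes in the same direction in 2 classes. These were F630206G17Rik and Rnf144b, higher in microglia and neurons, Ccnd3, lower in microglia and neurons, and Trpm3, lower in endothelial cells and neurons. All 4 were named after their values were seen. With edgeR 67 genes were called in 2 or more classes when low counts were not filtered, and 2 (Plxna4 and Ptgds) without WT replicate 1. A call in 1 class alone does not show that the other classes lacked the effect.

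The microglial gene with the smallest adjusted p was Ank (chr15:27466677-27594909, plus strand, GRCm38), which encodes a pyrophosphate transporter. Ank lay at 86.8 and 98.9 CPM in WT, 294 and 296 CPM in Cnp-/-, 913 and 859 CPM in 5xFAD and 800 and 696 CPM in Cnp-/-;5xFAD. The groups with and without 5xFAD did not overlap, and both Cnp-/- libraries lay between WT and 5xFAD. The averaged log2 difference was 2.29 (SE 0.122, 95% interval 2.02 to 2.56, adjusted p = 5.8e-05).

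Members of the DAM list that rose were Csf1, Lpl and Myo1e. Csf1 (chr3:107741048-107760469, minus strand) encodes a growth factor that sustains microglia, and lay at 10.9 and 11.6 CPM in WT, 91.6 and 49.9 CPM in Cnp-/-, 119 and 140 CPM in 5xFAD and 113 and 133 CPM in Cnp-/-;5xFAD (log2 difference 2.11, SE 0.293, adjusted p = 0.0208). Myo1e (chr9:70207350-70399766, plus strand), a class I myosin, lay at 109 and 98.9 CPM in WT, 399 and 190 CPM in Cnp-/-, 709 and 803 CPM in 5xFAD and 860 and 661 CPM in Cnp-/-;5xFAD (2.07, SE 0.226, adjusted p = 0.0068). Both were higher in every library with 5xFAD than in any without. Lpl (chr8:68880491-68907448, plus strand), the lipoprotein lipase, had 0 and 5.82 CPM in WT, 86.4 and 81.1 CPM in Cnp-/-, 79.9 and 117 CPM in 5xFAD and 123 and 126 CPM in Cnp-/-;5xFAD (3.04, SE 0.422, adjusted p = 0.0208). Lpl was the exception among the 21 genes that rose, because 5xFAD replicate 1 lay below both Cnp-/- libraries.

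Of the 28 genes of the DAM list, 25 were tested in microglia, of which 3 rose, 9 had an unadjusted p under 0.05 and a higher level, and none fell, beside 0.218% of all genes tested that rose and 9.38% with such a p in either direction. Their median log2 difference was 0.42, beside 0.02 over all genes tested. Cst7, a cystatin, lay at 0 CPM in both WT libraries, 1.73 and 6.24 CPM in Cnp-/-, 18 and 28.4 CPM in 5xFAD and 14.7 and 13.7 CPM in Cnp-/-;5xFAD, without overlap between the groups but with an adjusted p of 0.236. Trem2, the lipid receptor on which the DAM state depends, had a log2 difference of 0.37 (SE 0.222, adjusted p = 0.677), and its adaptor Tyrobp one of -0.16 (SE 0.299, adjusted p = 0.935). Apoe, the main lipid carrier of the brain, differed by -0.49 (SE 0.408, adjusted p = 0.791), and lay at 2070 CPM in WT replicate 2 against 399 to 1020 CPM in the other 7 libraries. In that same library the summed markers of border macrophages were at 2000 CPM, 703 CPM in WT replicate 1 and 176 to 575 CPM in the other 6, and all 4 of these markers were detected. Of 4 T cell markers, 3 were at 0 in all microglial profiles, and the sum was 1.52 to 16.7 CPM with 5xFAD and 0 CPM without. The authors' separate table of microglia and macrophages labels 205 of the 2472 nuclei of the class as macrophages, 14.3% and 24.1% of the class in WT, 3.3% and 7.23% in Cnp-/-, 11% and 7.22% in 5xFAD and 5.67% and 6.39% in Cnp-/-;5xFAD. Without these nuclei, an alternative added after the data were seen, edgeR called 26 genes, 25 of them higher, and all 22 genes of the whole class were among them. Apoe then lay at 897 CPM in WT replicate 2 and 240 to 752 CPM in the other 7 libraries, with a log2 difference of -0.23 (SE 0.337, adjusted p = 0.902).

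None of the 18 homeostatic microglia genes passed the threshold in edgeR, 1 was higher and 2 were lower at an unadjusted p under 0.05 (9.38% of all genes had such a p), and the median log2 difference of the list was -0.11, or 0.00177 without WT replicate 1. The purinergic receptor P2ry12 lay at 849 and 669 CPM in WT, 480 and 508 CPM in Cnp-/-, 627 and 632 CPM in 5xFAD and 469 and 622 CPM in Cnp-/-;5xFAD. Tmem119 had 127 and 98.9 CPM in WT and 36.9 to 56.7 CPM in the other 6 libraries, a log2 difference of -0.71 for 5xFAD (SE 0.264, adjusted p = 0.449). In bulk profiles of a class, fewer nuclei in a state and less RNA per nucleus cannot be told apart.

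The microglial nuclei with and without 5xFAD also carried different subtype labels in the authors' table of microglia and macrophages. Nuclei labelled AD_DAM made up 0.461% and 0% of the class in WT, 4.62% and 3.01% in Cnp-/-, 35.6% and 35.3% in 5xFAD and 33.8% and 27.5% in Cnp-/-;5xFAD. Nuclei labelled Myelin_DAM made up 0.461% and 0% in WT, 27.4% and 21.7% in Cnp-/-, 0.967% and 1.94% in 5xFAD and 15.8% and 12% in Cnp-/-;5xFAD. The label Homeostatic covered 71.4% and 60.8% of the class in WT and 29.1% to 41.7% in the other 6 libraries. Labels were set from the same counts, so they are a description, and 181 nuclei of the class have no label there. The gene differences of the whole class therefore compare unlike mixtures of labelled nuclei.

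Among the other genes that rose in microglia, Acaca, which makes malonyl-CoA for fatty acid synthesis, lay at 62.4 and 64 CPM in WT, 282 and 178 CPM in Cnp-/-, 420 and 412 CPM in 5xFAD and 420 and 436 CPM in Cnp-/-;5xFAD (1.78, SE 0.176, adjusted p = 0.00356). Kcnma1, the large-conductance calcium-activated potassium channel, lay at 5.43 and 34.9 CPM in WT, 60.5 and 46.8 CPM in Cnp-/-, 369 and 252 CPM in 5xFAD and 403 and 213 CPM in Cnp-/-;5xFAD (3.39, SE 0.378, adjusted p = 0.00723). Xylt1, which starts the glycosaminoglycan chains of proteoglycans, averaged 376 CPM with 5xFAD and 88 CPM without (2.60, SE 0.332). In each of these 3 genes the lowest library with 5xFAD lay above the highest without.

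Bcl2, an inhibitor of apoptosis, averaged 210 ± 19.6 CPM with 5xFAD and 71.2 ± 50.4 CPM without (SD, n = 4 each; log2 difference 1.78). Hif1a, the oxygen-regulated transcription factor, averaged 268 ± 12.6 and 120 ± 26.1 CPM (1.18), and Gnas, the stimulatory G protein alpha subunit, 365 ± 81.1 and 124 ± 53.2 CPM (1.66). Tnfsf8, the CD30 ligand, was at 73.8 ± 15.3 and 16 ± 13.9 CPM (2.81). Higher levels were also called for the adhesion molecule Cadm1 (946 ± 40.7 and 470 ± 191 CPM, 1.09), the alpha-catenin Ctnna3 (837 ± 27.5 and 348 ± 173 CPM, 1.34), the APP-binding adaptor Apbb2 (1.10), the GTPase-activating protein Arhgap24 (1.35), Fgf13 (1.34) and the RNA editing enzyme Adarb1 (2.64). Apbb2 averaged 1000 ± 37.1 CPM with 5xFAD, so it was among the more abundant of these transcripts. Hif1a, Ctnna3, Fgf13, F630206G17Rik and Auts2 lie outside the rule by which genes were chosen for naming, and are named to complete the list of 22.

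Mamdc2 and Gm37168 had no UMI in WT, and Pea15a lay near detection without 5xFAD. Mamdc2 (chr19:23302609-23448442, minus strand) lay at 0 CPM in both WT libraries, 62.2 and 81.1 CPM in Cnp-/-, 157 and 135 CPM in 5xFAD and 209 and 171 CPM in Cnp-/-;5xFAD. With a floor of 3 counts over both WT libraries (5.55 CPM), it was at least 26.8-fold higher in 5xFAD than in WT, and 2.79-fold higher in Cnp-/-;5xFAD than in Cnp-/-. Gm37168, a long intergenic non-coding RNA on chromosome 1, also had no UMI in WT and was at least 11.8-fold higher in 5xFAD on the same floor, and 3.35-fold higher on the Cnp-/- background. Pea15a (chr1:172196728-172206804, minus strand), a regulator of ERK signalling and of apoptosis, lay at 5.43 and 5.82 CPM in WT, 6.91 and 0 CPM in Cnp-/-, 62.9 and 63.4 CPM in 5xFAD and 65.4 and 71.6 CPM in Cnp-/-;5xFAD (3.67, adjusted p = 0.0189). Unlike Mamdc2, Pea15a was at like levels in WT and Cnp-/- and at like levels in 5xFAD and Cnp-/-;5xFAD. The non-coding transcript F630206G17Rik was at 83.9 ± 11.1 and 27.2 ± 23.4 CPM (2.13).

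Auts2 was the gene that fell, with a log2 difference of -0.91 (SE 0.136, adjusted p = 0.0322). It encodes a nuclear protein tied to neurodevelopment, and lay at 499 and 407 CPM in WT, 931 and 910 CPM in Cnp-/-, 284 and 339 CPM in 5xFAD and 448 and 340 CPM in Cnp-/-;5xFAD. The groups overlapped, because Cnp-/-;5xFAD replicate 1 lay above WT replicate 2. Summed neuron markers in microglia lay at 109 and 704 CPM in WT, 136 and 153 CPM in Cnp-/-, 136 and 68.4 CPM in 5xFAD and 79 and 73.1 CPM in Cnp-/-;5xFAD. The library with the most of them, WT replicate 2, thus held the lowest Auts2 of those without 5xFAD. The part of neuron transcripts in this difference was not tested. Counts of genes at low CPM, such as Cst7, rest on few molecules, since the microglial profiles held 171830 to 1001449 UMIs. Mamdc2 had 238 UMIs over both 5xFAD libraries and none in WT.

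**Figure D2:**
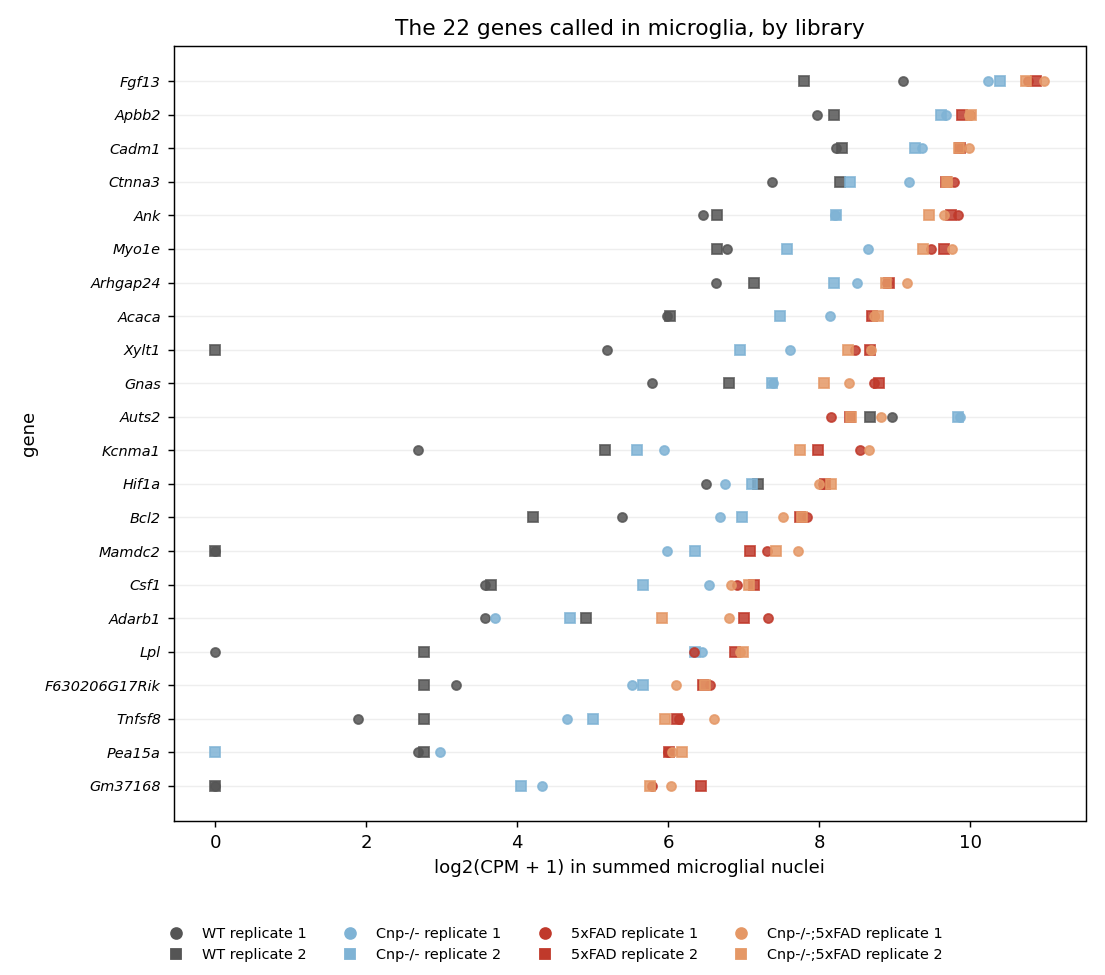
Level of each of the 22 called genes in the summed microglial nuclei (horizontal axis, log2 of CPM plus 1); each point is a library, coloured by genotype, and genes are ordered by their mean CPM with 5xFAD. For Ank, Csf1 and Myo1e the Cnp-/- libraries lie between WT and the libraries with 5xFAD.

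For most of the microglial genes the fitted difference was larger against WT than against Cnp-/-. Of the 21 genes that rose, 20 had a larger fitted difference between 5xFAD and WT than between Cnp-/-;5xFAD and Cnp-/-, with medians of 3.02 and 0.84 on the log2 scale. In 18 of them both Cnp-/- libraries lay above both WT libraries. Against WT, 17 genes rose in microglia (0.177% of genes tested), a count that was 5 when 1 of the 5xFAD libraries was left out, 72 without WT replicate 1 and 49 by DESeq2. Against Cnp-/-, edgeR called 0 genes of all tested (527 at an unadjusted p under 0.05), although all 21 fitted differences were positive and 17 had an unadjusted p under 0.05. The interaction, which is the test of that contrast between backgrounds, passed in edgeR for 0 genes in microglia (715 at an unadjusted p under 0.05) and 0 in any other class, while DESeq2 called 133 over all classes. Of the 21 genes 18 had an unadjusted interaction p under 0.05, and none passed the adjusted threshold by edgeR. The 2 comparisons do not share libraries, but the genes were chosen on their average.

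Markers of MOL in the microglial profiles were also lowest in WT. Their sum lay at 1170 and 722 CPM in WT, 4170 and 2210 CPM in Cnp-/-, 1750 and 1770 CPM in 5xFAD and 1950 and 2790 CPM in Cnp-/-;5xFAD, and all 5 were detected. Nuclei that the authors labelled MyTE made up 5.07% and 3.8% of the class in WT, 19.5% and 12% in Cnp-/-, 9.09% and 8.33% in 5xFAD and 11.1% and 13% in Cnp-/-;5xFAD. Some of the genes that rose are also expressed in MOL, where Ctnna3 averaged 2090 CPM with 5xFAD and 2080 CPM without, Acaca 606 and 564 CPM and Ank 468 and 435 CPM. Others were near 0 there, with Kcnma1 at 2.36 and 5.41 CPM, Bcl2 at 4.29 and 0.874 CPM and Lpl at 0.277 and 0 CPM. The part of MOL transcripts in the microglial differences was not tested.

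Ank differed by 1.31 against Cnp-/- (95% interval 0.96 to 1.66, adjusted p = 0.0918), beside 3.27 against WT. Pea15a was the gene whose difference was larger on the Cnp-/- background, with 3.90 (adjusted p = 0.582) beside 3.45. For Lpl the value against Cnp-/- was 0.54 (-0.26 to 1.34).

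The 22 microglial genes were then followed in the other classes, where fewer of them could be tested. All 22 passed the count filter in neurons, 18 in astrocytes, 17 each in endothelial cells, NFOL and OPC, 12 in MOL and 7 in pericytes, and none was called there by edgeR. Their median log2 difference was 0.08 in neurons, 0.01 in astrocytes, 0.11 in endothelial cells, 0.05 in NFOL, 0.03 in OPC, 0.07 in MOL and 0.08 in pericytes, against 2.09 in microglia, where they were selected. Unadjusted p under 0.05 was reached by 7 of them in neurons, 3 each in astrocytes, endothelial cells and NFOL, 1 each in MOL and OPC and 0 in pericytes. Over all genes tested the share with such a p was 11.8% in neurons, 4.86% in astrocytes, 5.22% in endothelial cells, 5.99% in NFOL, 3.72% in MOL, 4.39% in OPC and 3.98% in pericytes. Ank had a log2 difference of 0.51 in endothelial cells (unadjusted p = 0.0054, adjusted p = 0.908 by edgeR) and between -0.16 and 0.15 in astrocytes, MOL, neurons, NFOL and OPC. F630206G17Rik in neurons had the smallest unadjusted p of these genes outside microglia (0.00028 by edgeR). It lay at 0.0977 and 0.17 CPM in WT neurons, 0.311 and 0.436 CPM in Cnp-/-, 0.696 and 0.987 CPM in 5xFAD and 0.637 and 0.671 CPM in Cnp-/-;5xFAD (1.74, SE 0.265, adjusted p = 0.28). In neurons, as in microglia, that transcript was higher in every library with 5xFAD. It averaged 83.9 CPM in microglia with 5xFAD, and the part of microglial transcripts in the neuronal values was not tested. Myo1e in NFOL averaged 110 CPM with 5xFAD and 55.1 CPM without (1.05, unadjusted p = 0.00075, adjusted p = 0.365 by edgeR). These groups did not overlap either.

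Whether the 5xFAD effect differed between a pair of classes was tested directly, with library as a block, for the 21 pairs among the 7 classes that had at least 20 nuclei in every library. Calls arose in 7 of the 21 pairs, 6 of them with microglia. The effect was larger in microglia for 1 gene against astrocytes (0.0116% of genes tested), 2 against endothelial cells (0.0227%), 1 against MOL (0.0134%), 3 against neurons (0.0313%), 7 against NFOL (0.107%) and 5 against OPC (0.0652%), and smaller for 1 gene against NFOL (0.0153%). Neurons differed from NFOL for 2 genes, both lower in neurons (0.0276%), and edgeR called 0 genes in the other 14 pairs, in which 200 to 940 genes had an unadjusted p under 0.05. With 1 library left out, the count against neurons was 0 in all 8 fits. It ranged from 0 to 4 against astrocytes and from 0 to 3 against MOL (both highest without Cnp-/- replicate 1), and from 0 to 6 against endothelial cells, 0 to 22 against OPC and 2 to 29 against NFOL (each highest without WT replicate 1). Against endothelial cells it was also 0 with the size factors of DESeq2. The count of 2 over the 15 pairs without microglia changed in all 8 fits, from 0 to 15, and was 0 with those size factors. DESeq2 was not run on pairs of classes.

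Ank was the gene that differed from every class it could be tested against. The effect in microglia exceeded that in astrocytes by 2.44 on the log2 scale (SE 0.191, adjusted p = 0.0103), in endothelial cells by 1.81 (adjusted p = 0.0436), in MOL by 2.21 (0.0146), in NFOL by 2.21 (0.00143), in neurons by 2.14 (0.0256) and in OPC by 2.11 (0.0157). Some other called genes differed from 1 or 2 classes. Kcnma1 differed from NFOL (3.42) and OPC (3.39), Bcl2 from NFOL (2.11) and neurons (2.09) and Acaca from NFOL (1.64) and OPC (1.75). Gnas differed from endothelial cells (1.92), Arhgap24 from neurons (1.91), and Adarb1 (3.60), Xylt1 (2.61) and Ctnna3 (1.60) from NFOL. No class difference passed the adjusted threshold for Apbb2, Auts2, Cadm1, Csf1, F630206G17Rik, Fgf13, Gm37168, Hif1a, Lpl, Mamdc2, Myo1e, Pea15a and Tnfsf8. The DAM list members that rose (Csf1, Lpl and Myo1e) are thus among the genes without such a call. The fitted effect of Csf1 and Myo1e was nevertheless larger in microglia against all 6 classes, each at an unadjusted p under 0.05 by edgeR. Lpl could be tested against 1 class, neurons, where the difference was 2.62 (unadjusted p under 0.05 by edgeR). All 3 genes had been selected on their microglial effect. Of the 22 genes, 18 could be tested against at least 2 classes. With 1 library left out at a time, 16 of 48 tests of Ank passed the threshold, 8 of 8 against NFOL and 0 of 8 against neurons, while its difference stayed between 1.71 and 2.56.

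**Figure D3:**
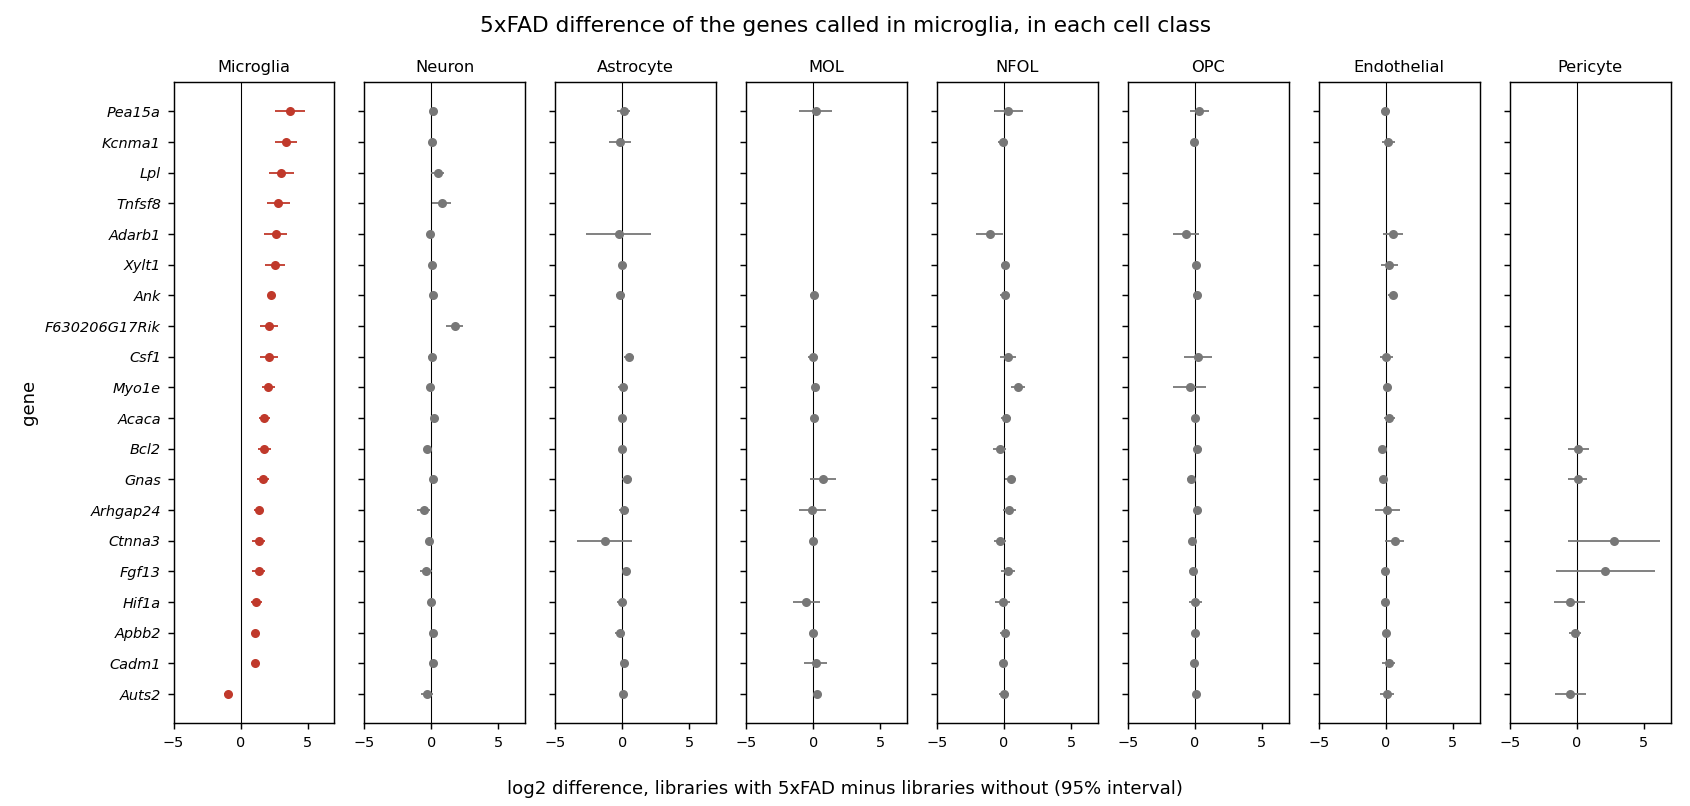
Averaged 5xFAD log2 difference (horizontal axes, with 95% interval) of genes called in microglia, in each cell class where the gene was tested; called differences are red and others grey. Mamdc2 and Gm37168, with no UMI in WT, are not drawn. Values run from -0.91 for Auts2 to 3.67 for Pea15a in microglia, where the genes were selected. The points of the other classes lie on both sides of 0, from -1.32 for Ctnna3 in astrocytes to 2.79 for Ctnna3 in pericytes.

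C4b, the complement component of the classical pathway, changed in MOL against WT. It lay at 15.5 and 16.9 CPM in WT, 290 and 300 CPM in Cnp-/-, 170 and 112 CPM in 5xFAD and 305 and 297 CPM in Cnp-/-;5xFAD (chr17:34728380-34743882, minus strand). It was the 1 gene called in MOL in that comparison (0.0114%), with a log2 difference of 3.10 (SE 0.277, 95% interval 2.46 to 3.75, adjusted p = 0.0484), and the call was lost in 7 of 8 fits with 1 library left out. On the Cnp-/- background the difference was -0.01 (-0.53 to 0.51), and the averaged effect of 1.55 had an adjusted p of 0.289 by edgeR. DESeq2 gave the averaged effect as 1.57 with an adjusted p of 6e-10 and called it. All 4 Cnp-/- and Cnp-/-;5xFAD libraries lay above both 5xFAD libraries. The interaction of -3.11 had an unadjusted p of 3.2e-05 and an adjusted p of 0.279 by edgeR.

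In OPC the order differed, with 3.1 and 2.85 CPM in WT, 12.6 and 14.7 CPM in Cnp-/-, 26.5 and 30.7 CPM in 5xFAD and 30.9 and 9.65 CPM in Cnp-/-;5xFAD (averaged difference 1.86, SE 0.484, adjusted p = 0.81). In astrocytes C4b lay at 69.5 and 61.1 CPM in WT, 180 and 255 CPM in Cnp-/-, 125 and 118 CPM in 5xFAD and 211 and 150 CPM in Cnp-/-;5xFAD. In microglia C4b differed by -0.44 and was not called. WT libraries held the lowest C4b of the 4 genotypes in MOL, OPC and astrocytes.

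**Figure D4:**
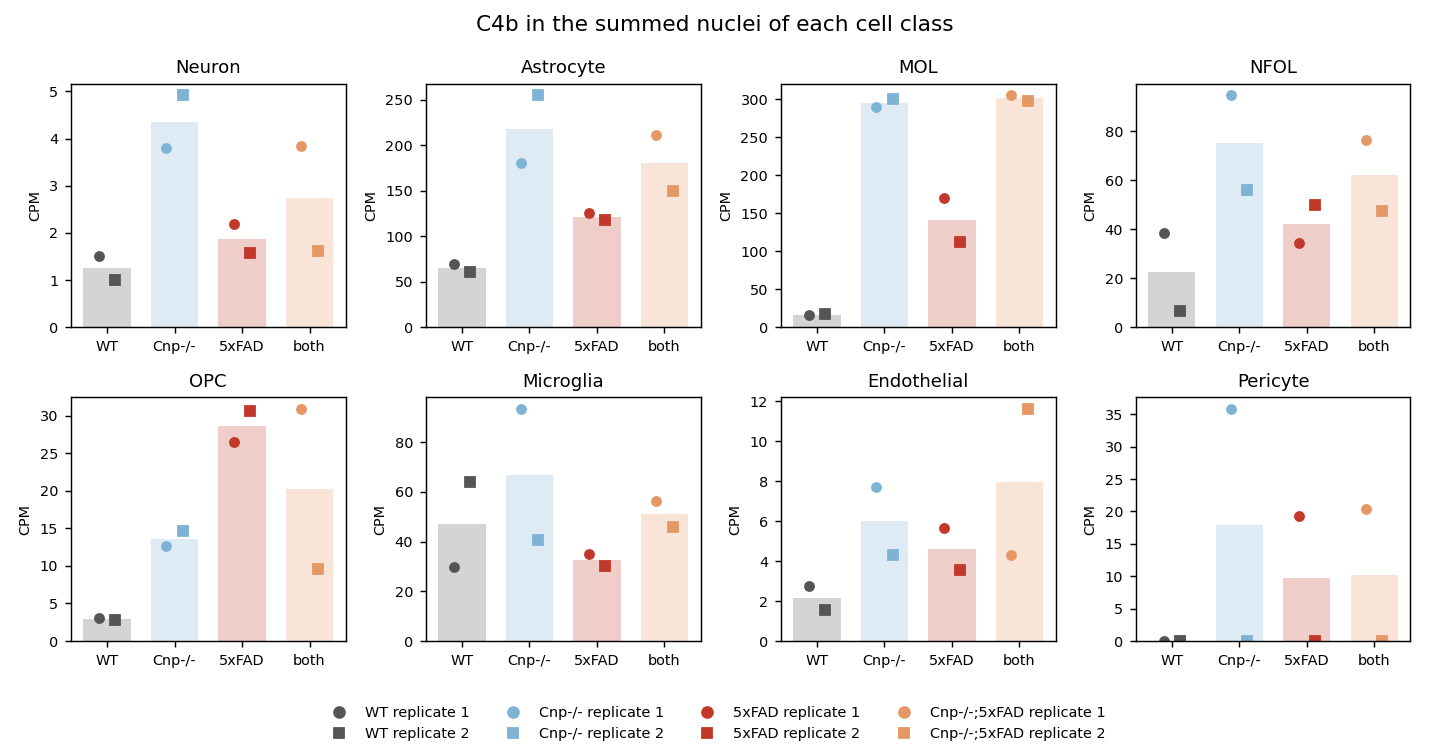
CPM of C4b in the summed nuclei of each cell class (1 panel each, own vertical axis), by genotype; points are the 2 libraries and bars their mean. In MOL the WT libraries lie at 15.5 and 16.9 CPM and all others at 112 CPM or more.

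Against WT, genes fell in the 5xFAD profiles of NFOL and pericytes, several of them known from neurons. In NFOL 2 genes fell (0.0276%). These were Zfp385b, at 96.3 and 91.8 CPM in WT, 13.5 and 60.3 CPM in Cnp-/-, 5.4 and 2.38 CPM in 5xFAD and 15.3 and 14.9 CPM in Cnp-/-;5xFAD, and the dynein intermediate chain gene Dync1i1, at 104 and 131 CPM in WT, 71 and 81.9 CPM in Cnp-/-, 27 and 26.2 CPM in 5xFAD and 38.1 and 35.7 CPM in Cnp-/-;5xFAD. DESeq2 called 1 gene in this comparison, and the edgeR count left its value of 2 in all 8 fits with 1 library left out. Summed neuron markers in NFOL were at 138 to 405 CPM without 5xFAD and 73.8 to 193 CPM with it, and their part was not tested.

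In pericytes 12 genes fell (0.613%), among them the synaptic adhesion gene Nrxn3, the glutamate receptor subunit Grik2, the potassium channel Kcnd2 and Auts2. Kcnd2 lay at 1170 and 1330 CPM in WT, 0 CPM in both Cnp-/- libraries, 19.3 and 167 CPM in 5xFAD and 61.3 and 0 CPM in Cnp-/-;5xFAD, so both WT libraries stood apart from the other 6. Each WT pericyte profile summed 20 or 21 nuclei, and summed neuron markers in pericytes followed the same pattern, at 528 and 1040 CPM in WT, 0 CPM in both Cnp-/- libraries, 9.63 and 45.6 CPM in 5xFAD and 163 and 0 CPM in Cnp-/-;5xFAD. Their part was not tested. The count of 12 was 0 without 5xFAD replicate 1, 6 without WT replicate 1, 35 without Cnp-/-;5xFAD replicate 1 and 36 without Cnp-/-;5xFAD replicate 2. DESeq2 called 1 gene in this comparison. The pericyte fit used 7 libraries, since Cnp-/- replicate 2 held 19 pericytes. Against WT, edgeR called 0 genes in astrocytes (342 at an unadjusted p under 0.05, DESeq2 3 called), endothelial cells (688, DESeq2 12), neurons (1846, DESeq2 214) and OPC (396, DESeq2 0). Against Cnp-/-, edgeR called 0 genes in every class, with 84 genes in pericytes to 1687 in neurons at an unadjusted p under 0.05, and DESeq2 called 199 over all classes.

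The remaining gene lists were read in selected classes. Outside the DAM list no member of any of the 17 lists passed the threshold by edgeR for the averaged effect in any class. Against WT, C4b in MOL and Grik2 in pericytes were the other list members called. In neurons, 17 genes of cholesterol synthesis and uptake were tested, and 13 had an unadjusted p under 0.05, all higher with 5xFAD. Their median log2 difference was 0.41, beside -0.000978 over all genes tested in neurons, of which 11.8% had such a p. Hmgcs1, an early enzyme of the pathway, lay at 29.5 and 29.6 CPM in WT, 27.3 and 12 CPM in Cnp-/-, 41.1 and 44.1 CPM in 5xFAD and 39.6 and 33.7 CPM in Cnp-/-;5xFAD (0.73, SE 0.231, adjusted p = 0.32). It did not overlap between the groups. Fdft1, which makes squalene, lay at 41.8 and 42.4 CPM in WT, 35.9 and 35 CPM in Cnp-/-, 57.9 and 47.7 CPM in 5xFAD and 52.8 and 44.6 CPM in Cnp-/-;5xFAD (0.41, SE 0.0876, adjusted p = 0.28). DESeq2 called 5 members of the list in neurons, all higher, among them Hmgcs1, Fdps and Fdft1, beside 2.32% of all genes in either direction. No member reached an unadjusted p under 0.05 in astrocytes (17 tested, median -0.0838), MOL (12, -0.216), OPC (14, -0.0899) or NFOL (10, 0.12). At that level 1 of 16 was higher in endothelial cells (0.101), and in microglia 1 of 8 was higher and 1 lower (0.368). Of all genes, 5.22% and 9.38% had such a p in these 2 classes.

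Of 11 myelin genes in neuronal profiles, 9 had an unadjusted p under 0.05, all lower with 5xFAD, with a median of -0.56. Neurons do not make myelin, and Mbp lay at 91 to 124 CPM with 5xFAD and 112 to 155 CPM without, while Mobp lay at 11.1 to 16.6 and 13.5 to 36.3 CPM. The fitted difference was below 0 for all 11 of these genes, none of which passed the adjusted threshold. Summed markers of other cells in the neuronal profiles are set beside these values. Endothelial markers lay at 1.63 to 2.51 CPM with 5xFAD and 2.87 to 7.29 CPM without, which did not overlap, OPC markers at 191 to 361 and 348 to 443 CPM, NFOL markers at 20.3 to 39.8 and 34.3 to 85 CPM, pericyte markers at 1.51 to 3.14 and 2.57 to 10.5 CPM and MOL markers at 165 to 218 and 195 to 339 CPM. Astrocyte markers lay at 235 to 305 and 275 to 354 CPM, and fibroblast markers at 1.81 to 11.1 and 9.21 to 13.8 CPM. Microglial markers were not lower, at 68.4 to 79 CPM with 5xFAD and 68.7 to 75 CPM without. T cell markers lay at 18.7 to 23 and 15.7 to 20 CPM, and border macrophage markers at 1.77 to 3.01 and 1.81 to 2.68 CPM. Smooth muscle, choroid plexus and ependymal markers were at 1.99 CPM or less in every library. All of these markers were detected, and the part of other cells in the neuronal values was not tested. DESeq2 called Aqp4 (-1.74, adjusted p = 0.00141), Gja1 (-1.89, 0.00194) and Vtn (-2.81, 0.000579) lower in neurons, genes known from astrocytes and vascular cells and named after their values were seen. In MOL, the cells that make myelin, the list of myelin genes had a median of -0.10 and no gene at an unadjusted p under 0.05.

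In astrocytes, 15 genes of the reactive list were tested, 0 had an unadjusted p under 0.05, 0 were called by DESeq2, and the median was -0.14. Gfap, the intermediate filament of reactive astrocytes, lay at 162 and 329 CPM in WT, 327 and 563 CPM in Cnp-/-, 220 and 252 CPM in 5xFAD and 356 and 426 CPM in Cnp-/-;5xFAD. The 5xFAD libraries thus lay within the range of WT. Serpina3n, a protease inhibitor, lay at 0.392 and 3.32 CPM in WT, 14 and 35 CPM in Cnp-/-, 4.02 and 5.58 CPM in 5xFAD and 17.1 and 27.4 CPM in Cnp-/-;5xFAD (0.66, SE 0.576, adjusted p = 0.974).

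In endothelial cells, 26 genes of antigen presentation and interferon response were tested, and 7 had an unadjusted p under 0.05, all higher, beside 5.22% of all genes with such a p in either direction, with a median of 0.13 beside 0.00405 over all genes. In the other classes the list had 3 of 17 higher at that level in astrocytes (median 0.37), 3 of 22 in microglia (0.31), 0 of 7 in MOL (0.55), 1 of 5 in NFOL (0.38) and 2 of 9 in OPC (0.19), and in neurons 1 of 28 higher and 4 lower (-0.14). Medians in astrocytes, microglia, MOL, NFOL and OPC were thus above that in endothelial cells, and DESeq2 called no member in any class. In endothelial cells H2-Q7, a class I major histocompatibility gene, lay at 12.7 and 12.4 CPM in WT, 20.2 and 23.5 CPM in Cnp-/-, 34.9 and 40.6 CPM in 5xFAD and 56.1 and 43.9 CPM in Cnp-/-;5xFAD (1.37, SE 0.198, adjusted p = 0.726). It did not overlap between the groups. Reads of H2-Q7 may be shared with its near-identical neighbours in the H2-Q cluster, so its counts are uncertain. H2-K1 lay at 339 to 370 CPM with 5xFAD and 235 to 339 CPM without (0.25).

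Of the blood-brain barrier list, 17 genes were tested in endothelial cells, 1 had an unadjusted p under 0.05 and the median was -0.06. Over all genes tested, the share with an unadjusted p under 0.05 in either direction was 4.86% in astrocytes, 3.72% in MOL, 9.38% in microglia and 11.8% in neurons. The next counts are to be read against these shares. The list of disease-associated oligodendrocyte genes had 8 tested in MOL, with 1 higher and 1 lower at an unadjusted p under 0.05. Of 21 lysosomal genes in microglia 1 was higher at that level (median 0.13), and of 11 genes of the unfolded protein and integrated stress response 4 were (median 0.28). Complement genes in microglia had a median of -0.44, with 2 of 9 lower at an unadjusted p under 0.05. Of 23 immediate early genes in neurons 3 had such a p (median -0.13), near the share of all genes, as did 3 of 18 glutamate and GABA receptor genes (0.06) and 1 of 16 genes of amyloid precursor processing (-0.01). DESeq2 called 1 of these immediate early genes, Egr1, higher (0.90, adjusted p = 0.0119), and no member of the other lists of that sentence. Region markers of neurons (16 tested, 2 higher and 3 lower at an unadjusted p under 0.05, median -0.03) and of astrocytes were read for unequal sampling of brain regions. Of the 6 astrocyte region markers, 0 had a difference above 0 in astrocytes, and 1 was lower at that level (median -0.28). In neuronal profiles 2 of these 6 were above 0 and 3 were lower at that level (median -0.75), and DESeq2 called 3 lower. Of the neuron region markers DESeq2 called 3 of 16 in neurons, beside 2.32% of all genes. These were Cux2, of upper cortical layers, which was higher (0.34, adjusted p = 0.00851), and Slc17a6 (-0.64, 0.0389) and Tcf7l2 (-1.42, 0.0341), both prominent in thalamus, which were lower, and the part of region sampling in the neuronal values was not tested. Sex-linked genes numbered 3 to 6 per class and none was called.

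Depth per nucleus did not separate the groups in any class. The medians of UMIs and of detected genes per nucleus overlapped between libraries with and without 5xFAD in all 8 classes, and microglial nuclei had a mean of library medians of 1370 UMIs with 5xFAD and 1500 UMIs without (exact permutation p = 0.286, adjusted p = 0.838). The summed profiles differed far more between classes, from 64172772 to 77113463 UMIs in neurons to 23002 to 103832 UMIs in pericytes.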

How the data were processed

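Single-nucleus 3' RNA-seq data of 8 libraries were used. Per the labels and the study's methods, the authors aligned reads with Cell Ranger 6.1.2 to mm10, removed ambient transcripts with CellBender, filtered nuclei on UMIs and detected genes, and annotated cell classes. How doublets and intronic reads were treated is not given in the sources used here. The deposited values are UMI counts per gene (32285 genes) and nucleus, without normalization, with the counts of UMIs and detected genes per nucleus. From the authors' second table, of microglia and macrophages, only the subtype labels were used.

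Here counts were summed per library and class, with at least 20 nuclei. Genes passing filterByExpr were scaled by TMM and tested with edgeR 4.0.16 (R 4.3.3; quasi-likelihood, 1 mean per genotype, two-sided, Benjamini-Hochberg threshold 0.05 per class). Pairs of classes were fitted together with library as a block. Shares and medians were compared by exact permutation over libraries (scipy 1.17.1). DESeq2 1.42.0 and other settings were alternatives. Models were tested on simulated data. Positions are from GENCODE for GRCm38. Genes at 0 took a floor of 3 counts. Named genes were the called genes without overlap between groups that changed most (up to 8 higher and 5 lower per class), the 15 genes called in most classes (ties by p), up to 5 per class differing from every other class tested, gene list members and label checks. The members and lists were chosen with earlier results of these data known. Some list members and called genes are not reported here.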

Additional observations from a re-analysis of the deposited data

Results flagged for a closer look

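Of 92 groups of 4 libraries examined for a single library apart (Dixon's criterion, which chance meets in about 1 group of 20), 4 held one (4.35%). Cnp-/-;5xFAD replicate 2 stood apart in median detected genes per nucleus in MOL (804 genes, the others with 5xFAD 988 to 997) and in NFOL (2230 genes, the others 2530 to 2590). In microglia, Arhgap24 was at 573 CPM in Cnp-/-;5xFAD replicate 1 (472 to 486 CPM in the other libraries with 5xFAD) and Ctnna3 at 878 CPM in 5xFAD replicate 1 (819 to 826 CPM).

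A difference of the 5xFAD effect between a pair of classes passed the edgeR test in 22 cases, given here on the log2 scale. For Ank the excess in microglia was 2.44 over astrocytes, 1.81 over endothelial cells, 2.21 over MOL, 2.21 over NFOL, 2.14 over neurons and 2.11 over OPC. Against NFOL the excess was 1.64 for Acaca, 3.6 for Adarb1, 2.11 for Bcl2, 1.6 for Ctnna3, 3.42 for Kcnma1 and 2.61 for Xylt1, and the difference was -2.01 for Tmem108. Against OPC it was 1.75 for Acaca, 6.21 for Actr3b, 3.39 for Kcnma1 and 2.48 for Ywhag. It was 1.91 for Arhgap24 and 2.09 for Bcl2 against neurons and 1.92 for Gnas against endothelial cells.

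Actr3b, a subunit of an actin-nucleating complex, was not itself called in microglia (adjusted p = 0.0707), where it had no UMI in WT, 1.73 and 6.24 CPM in Cnp-/-, 25 and 93.5 CPM in 5xFAD and 39.5 and 51.8 CPM in Cnp-/-;5xFAD. Between neurons and NFOL the difference was -1.18 for Kank1 and -1.5 for Tcf7l2, a transcription factor of thalamic neurons and of newly formed oligodendrocytes. Tcf7l2 in neurons lay at 64.7 and 54.1 CPM in WT, 11.7 and 19.1 CPM in Cnp-/-, 11.9 and 10.1 CPM in 5xFAD and 17.2 and 5.53 CPM in Cnp-/-;5xFAD, so that WT stood above the other genotypes. Tmem108, Actr3b, Ywhag and Kank1 were chosen after their values were seen.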

How the results depend on the processing

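The microglial count of 22 was 22 with the size factors of DESeq2, with at least 5 nuclei and without sex-linked genes, and 26 without nuclei labelled macrophages (21 against WT), and all 22 genes kept their sign in every setting (21 of 21 testable after thinning). It was 300 with no filter on low counts, 45 by DESeq2, 0 in an additive model of both genotypes, and 22, of which 14 shared, after thinning to 171830 UMIs. Gene-level deviations of same-numbered libraries correlated weakly, at -0.203 to 0.189 (4 of 42 correlations over 0.1). In every genotype, however, the shares of microglia, MOL, OPC and NFOL were higher in replicate 1 than in replicate 2, and neurons lower. Whether replicate numbers pair the libraries is not stated in the sources used here. With the replicate number as a block the microglial count was 11, and the counts against WT were 0 in MOL, 0 in NFOL and 27 in pericytes. With 1 library left out, microglia gave 8 (without 5xFAD replicate 2) to 75 genes (without WT replicate 1), endothelial cells 0 to 142, NFOL 0 to 12, neurons 0 to 4 and pericytes 0 to 2; genes called in 1 class ranged from 8 to 213 and in more classes from 0 to 2 (Plxna4 and Ptgds, without WT replicate 1). Against WT the ranges were 5 to 72 in microglia, 0 to 1 in MOL, 0 to 10 in NFOL, 0 to 278 in endothelial cells, 0 to 5 in neurons and 0 to 36 in pericytes, and 0 to 176 over all classes against Cnp-/- and 0 to 123 for the interaction. Without Cnp-/- replicate 1 pericytes could not be fitted. The causes were not tested.

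With no filter, calls were 352 in astrocytes, 135 in endothelial cells, 37 in MOL, 47 in NFOL, 110 in OPC and 2 in pericytes (67 genes in 2 or more classes, 828 in 1), and against WT 239, 282, 19, 33, 93 and 60, with 328 in microglia; 828 against Cnp-/- and 988 for the interaction. DESeq2 gave 2 in astrocytes, 2 in endothelial cells, 6 in MOL, 501 in neurons and 3 in OPC (4 in 2 or more classes, 551 in 1), and against WT 3, 12, 6, 214 and 0, with 49 in microglia, 1 in NFOL and 1 in pericytes; 199 against Cnp-/- and 133 for the interaction. Thinning gave 23 in neurons and 1 in OPC (46 in 1 class), and against WT 2 in neurons, 1 in endothelial cells and 0 in NFOL; 15 against Cnp-/- and 11 for the interaction. The additive model gave 4 in pericytes (4 in 1 class), and the block 11 in 1 class, 1 against Cnp-/- and 13 for the interaction.

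Class differences without the library block numbered 9 (microglia and astrocytes), 14 (endothelial cells), 8 (MOL), 67 (neurons), 17 (OPC) and 10 (15 pairs without microglia); size factors gave 0 for endothelial cells and 0 for those 15 pairs. With 1 library left out they ranged from 0 to 4, 0 to 6, 0 to 3, 0 to 0, 0 to 22 and 0 to 15, and from 2 to 29 for NFOL. Among nuclei other than neurons the share differences of astrocytes (-4.88 points), endothelial cells (-1.09) and MOL (-4.75) reversed. The median of the homeostatic list ranged from -0.171 to 0.00177, the latter without WT replicate 1. With 1 library left out, differences of median UMIs ranged from -54 to 245 (astrocytes), -80.7 to 142 (endothelial cells), -224 to 80 (MOL), -150 to 238 (OPC) and -78.2 to 168 (pericytes), and of median genes from -101 to 66.3 (MOL), -32.6 to 117 (OPC) and -79.8 to 66 (pericytes).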
